A study of Mus musculus with 2 samples.

Results

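Binding of the transcription factor EBF1 was examined in a pair of 350 kb windows of mouse chromosome 11, the Ikzf1 window (chr11:11450001-11800000, mm8) and the Ikzf3 window (chr11:98200001-98550000, mm8). Ikzf1 encodes Ikaros and Ikzf3 encodes Aiolos. The windows were set by mm8 position for these genes. That they contain the genes was not checked, because no mm8 gene positions were used here, and "locus" below means the window. In all, 9 of the 7424 EBF1 peaks in the authors' list had their centre in one of them, 4 in the Ikzf1 window and 5 in the Ikzf3 window. Chromosome 11 held 664 listed peaks in all. The data were 1 chromatin immunoprecipitation (ChIP-seq) library made with an antibody against EBF1 and 1 input library of fixed, sonicated DNA without precipitation. Both came from splenic B cells of adult C57BL/6 mice, with no transgene, deletion or treatment named, and the number of pooled animals is not given in the sources used here. Cells carrying CD43, AA4.1, CD9, CD4 or CD8 had been depleted, and per the labels B220 was found on about 97% of what was left, of which about 92% were CD23 positive and CD21 intermediate, as mature follicular B cells are. Markers of cell type could not be read from these data, so the cell identity rests on that staining. The ChIP library held 24354888 aligned reads and the input 23053279, of which 1346744 and 1154224 lay on chromosome 11.

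EBF1 is a DNA-binding factor needed for commitment to the B cell lineage, and it binds as a dimer to a palindromic sequence. Ikaros and Aiolos are related zinc finger proteins that bind DNA and recruit chromatin-remodelling and repressor complexes. Ikaros acts from early blood progenitors onwards and is needed for lymphocytes to form, while Aiolos rises later in the B lineage and takes part in setting the activation threshold and final maturation of B cells. The family has 3 further members, Helios (Ikzf2), Eos (Ikzf4) and Pegasus (Ikzf5).

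Neighbours of the genes were taken from the RefSeq gene table of another build (GRCm38.p6), for their names and order alone. Among protein-coding genes, Ikzf1 follows Zpbp, Spata48 and 4930512M02Rik and precedes Fignl1, Ddc (the enzyme that makes dopamine and serotonin from their precursors), Grb10 and Cobl. Ikzf3 lies between Erbb2 (a growth factor receptor), Mien1 and Grb7 on one side and Zpbp2, Ormdl3 (a regulator of sphingolipid synthesis) and Lrrc3c on the other. Without gene positions in mm8, a peak is given by its position in the window and assigned to no gene, exon, intron or promoter.

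The promoter of Ikzf1 is shown because it is the stretch in which an EBF1 recognition sequence would be looked for first. It is RefSeq sequence of GRCm38.p6, the 250 bases before the annotated start at chr11:11685675-11685924 on the plus strand, a build that cannot be set beside the mm8 peaks. Capitals mark the bases that match CCCNNGGG, the core of the EBF1 palindrome, which reads the same on both strands.
Ikzf1 promoter: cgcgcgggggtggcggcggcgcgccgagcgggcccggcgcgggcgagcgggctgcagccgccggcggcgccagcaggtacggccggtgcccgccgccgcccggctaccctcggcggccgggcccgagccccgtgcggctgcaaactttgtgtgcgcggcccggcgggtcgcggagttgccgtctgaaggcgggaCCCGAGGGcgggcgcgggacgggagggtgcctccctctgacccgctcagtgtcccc
The match begins 56 bases before the start. The promoter is 82% G and C and holds 44 CG dinucleotides. CCCNNGGG occurred in 11.8% of the 32851 promoter windows of this length, so its presence does not set this promoter apart. The longer palindrome, which adds a T before and an A after the shorter one, occurred in 0.779% of promoter windows and was not among these 250 bases. A second annotated start of Ikzf1, at chr11:11689927-11690176 on the plus strand, held neither form, and nor did the promoter of Ikzf5. Of the 5 family genes, Ikzf1 and Ikzf5 were matched in the promoter table, while Ikzf2, Ikzf3 and Ikzf4 were not.

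The Ikzf1 window held 1 strong EBF1 peak, 1 of intermediate score and 2 near the middle of the list. Reads were counted in each 150 bp peak after moving the 5′ end of every read 100 bp towards its 3′ end. Ratios of ChIP to input were scaled for library size (a factor of 1.06 from the reads on chromosomes 1 to 19, X and Y) and carry an exact 95% interval that covers counting error only. There were no replicates, so no p-value is given. The score of a peak is the authors' own value. Because the authors called the peaks from these ChIP reads, a high ratio within them follows in part from that choice.

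The strongest peak of either window was at chr11:11709241-11709390 in the Ikzf1 window, 259 kb from the start of the window, with a score of 25.0. The ChIP library had 45 reads in it and the input 1, which gave a scaled ratio of 42.6 (7.26 to 1719). Its score ranked 22nd of 664 on chromosome 11 and 295th of the 7415 listed peaks on chromosomes 1 to 19, X and Y, above 96.0% of them. In 1 kb around its centre 97 ChIP reads lay against 6 in the input, and the ratio was 15.3 (6.78 to 42.7), the highest of the 9 peaks over that length.

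Signal beside this peak was one-sided. From 75 to 500 bp on the side of lower coordinates, 43 ChIP reads lay against 1 input read, a ratio of 40.7 (6.92 to 1644). On the other side, 9 ChIP reads lay against 4 input reads, a ratio of 2.13 (0.594 to 9.46). The ChIP side band thus held nearly as many reads as the listed 150 bp, but over a longer stretch, so at a lower density. The intervals of both sides overlap because so few input reads were present. ChIP reads on the plus strand had their median start 68 bp below the centre and those on the minus strand 9 bp above it, a distance of 77 bp between strands. When reads were moved by 50 bp instead, the count in the peak rose to 60 ChIP reads against 1 input read. The sides were counted with the 100 bp move alone, so their size under another move was not tested.

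The second peak of the Ikzf1 window, at chr11:11464391-11464540, lay 14.5 kb from its start and had a score of 13.2, above 87.2% of listed peaks. The ChIP library had 33 reads in it and the input 0, which is 10.4-fold higher when a floor of 3 counts stands in for the input. With counting error, the lower limit of the ratio was 8.00. With reads not moved the counts were 27 and 2, and the ratio was 12.8 (3.21 to 111). The sides of this peak were even and low. At 75 to 500 bp, 11 ChIP reads lay below and 11 above the centre, against 8 and 7 input reads. From 300 to 1000 bp there were 15 ChIP reads against 24 in the input, and the ratio was 0.592 (0.289 to 1.17), so the signal there had fallen to the level of the input. It showed no shoulder like that of the one-sided peak described above.

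The other 2 peaks of the Ikzf1 window lay near the middle of the list by score, above 57.4% and 48.9% of listed peaks. One, at chr11:11688801-11688950, scored 6.45 with 17 ChIP reads against 2 in the input, and its ratio was 8.04 (1.91 to 71.8). It lay 20.4 kb below the strongest peak. The other, at chr11:11469601-11469750, scored 6.07, the median of the list, with 12 ChIP reads against 2 in the input and a ratio of 5.68 (1.26 to 52.2). It lay 5.21 kb above the peak of score 13.2. The 4 peaks thus lay at 14.5 and 19.7 kb and at 239 and 259 kb from the window start, a stronger and a weaker peak at each place. A neighbour at 5.21 kb or closer was found for 1536 of the 7415 peaks (20.7%). At 20.4 kb or closer the number was 2999 (40.4%), so such spacing does not set these peaks apart.

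**Figure D1:**
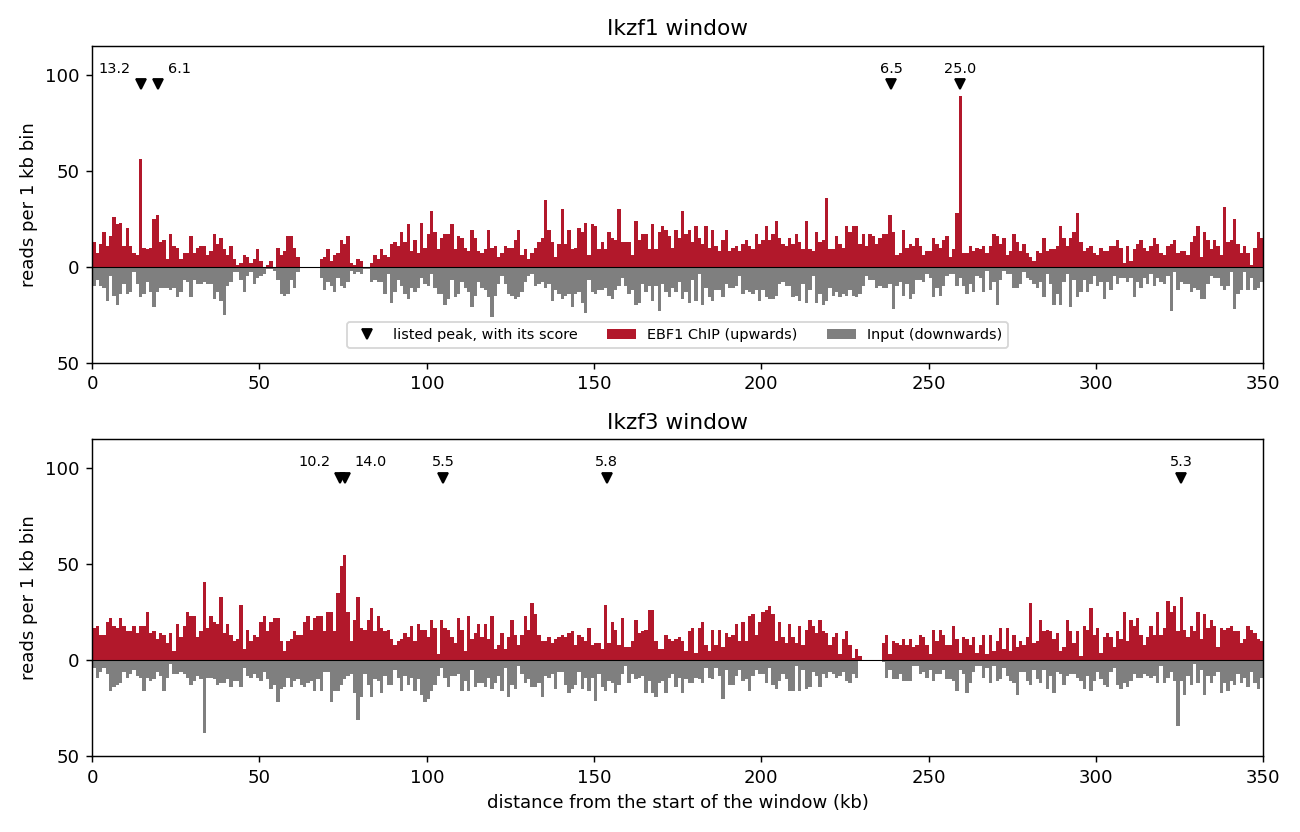
Reads per 1 kb bin across the Ikzf1 window (top) and the Ikzf3 window (bottom), with EBF1 ChIP reads drawn upwards and input reads downwards against distance from the start of the window in kb. Triangles mark the listed peaks with their scores. The bin of the score 25.0 peak reaches 89 ChIP reads against 6 input reads, while the bins of the score 14.0 and 10.2 peaks in the Ikzf3 window reach 55 and 49.

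In the Ikzf3 window the highest signal was a close pair of peaks. Its upper member, at chr11:98275441-98275590, scored 14.0, above 88.3% of listed peaks. It had 27 reads in the ChIP library and 0 in the input, 8.52-fold higher by the same floor. With counting error, the lower limit of the ratio was 6.46. With reads not moved the counts were 16 and 1, and the ratio was 15.1 (2.35 to 635). The lower member of the pair, at chr11:98274091-98274240, scored 10.2, above 81.5% of listed peaks. It had 22 reads in the ChIP library and 1 in the input, which gave a ratio of 20.8 (3.37 to 859). Their centres lay 1.35 kb apart. A neighbour at that distance or closer was found for 793 of the 7415 peaks (10.7%).

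Over 1 kb the members of this pair were not resolved from the second peak of the Ikzf1 window. In 1 kb around the centres, the score 14.0 peak had 55 ChIP and 10 input reads (ratio 5.21, 2.63 to 11.5). The score 10.2 peak had 60 ChIP and 14 input reads (ratio 4.06, 2.24 to 7.86). The score 13.2 peak of the Ikzf1 window had 55 ChIP and 15 input reads over the same length (ratio 3.47, 1.93 to 6.61), and its interval overlaps both. Beside the score 10.2 peak, the side of lower coordinates had 23 ChIP reads against 4 in the input, and the ratio was 5.44 (1.86 to 21.6), while the side facing its partner held 15 and 9, a ratio of 1.58 (0.647 to 4.09). Both sides of the score 14.0 peak held 14 ChIP and 5 input reads. The 1 kb counts of the pair do not overlap, since their centres are further apart than 1 kb.

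The remaining 3 peaks of the Ikzf3 window had scores below the median of the list and lay apart from one another. At chr11:98304851-98305000 the score was 5.55, with 10 ChIP reads against 1 in the input (ratio 9.46, 1.35 to 411). At chr11:98353761-98353910 the score was 5.77, with 13 against 1 (ratio 12.3, 1.85 to 523). The lowest score of the 9, 5.29, was at chr11:98525451-98525600, with 9 ChIP reads against 2 in the input, and its ratio of 4.26 (0.882 to 40.5) was not resolved from 1 at this depth. The adjoining 1 kb bin below this last peak held 15 ChIP and 34 input reads. The nearest other listed peak was between 29.4 and 56.9 kb away from each of these 3.

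**Figure D2:**
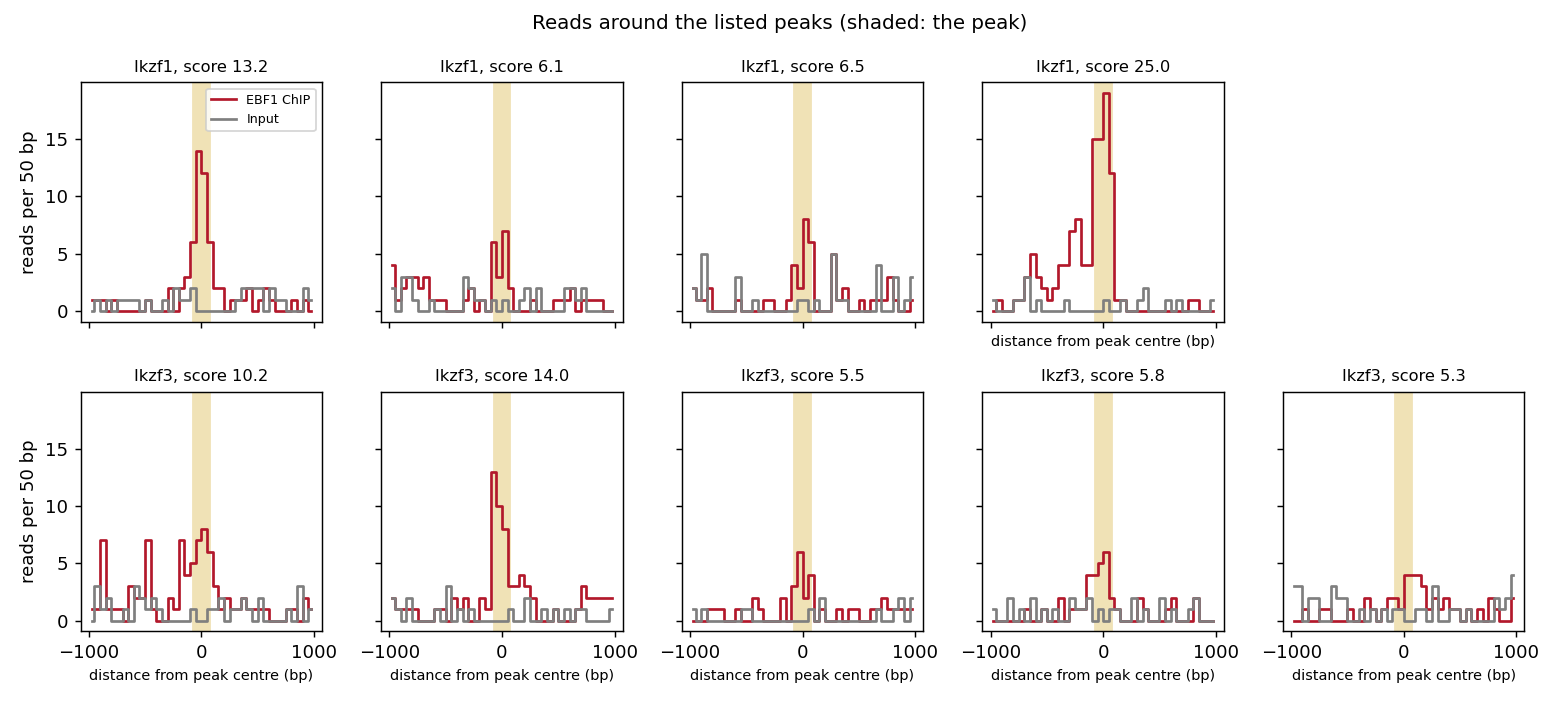
Reads per 50 bp from 1000 bp below to 1000 bp above the centre of each of the 9 listed peaks, for EBF1 ChIP (red) and input (grey), with the Ikzf1 window above and the Ikzf3 window below. The shaded band is the 150 bp peak. The score 25.0 peak has a shoulder on its left side, the score 13.2 peak has none, and the score 5.3 peak is low and broad.

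ChIP reads outnumbered input reads in each of the 9 peaks. The interval of the ratio lay above 1 in 8 of 9 peaks, which is close to the 86.6% of listed peaks on chromosomes 1 to 19, X and Y, and to the 87.8% on chromosome 11. Among the 9 peaks, 4 scored at least 10, 2 in each window, against 18.9% of listed peaks. With 9 peaks this difference is a description.

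Pooled over its peaks, 107 ChIP reads lay in the Ikzf1 window against 5 in the input, and the ratio was 20.3 (8.41 to 63.6). For the Ikzf3 window the counts were 81 and 5, and the ratio was 15.3 (6.31 to 48.5). The ratio in peaks of the Ikzf1 window divided by that of the Ikzf3 window was 1.32 (0.293 to 5.94), so the loci were not distinguishable in this measure at this depth. With reads not moved the pooled ratios were 9.46 and 8.38, and in 1 kb around the centres 4.26 and 3.61. Listed peaks took 2.47% of the ChIP reads of the Ikzf1 window and 1.58% of those of the Ikzf3 window, against 0.132% and 0.137% of the input reads.

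The loci differed outside the peaks, where the Ikzf3 window carried more ChIP signal. This was measured in 1 kb bins at least 2 kb from any listed peak. Over 330 such bins of the Ikzf1 window, 3923 ChIP reads lay against 3562 in the input, for a ratio of 1.04 (0.996 to 1.09). Over 329 such bins of the Ikzf3 window, 4675 lay against 3390, for a ratio of 1.31 (1.25 to 1.36). The ratio of the Ikzf1 window divided by that of the Ikzf3 window was 0.799 (0.749 to 0.851), a difference beyond counting error. The median covered bin outside peaks held 11 ChIP and 11 input reads in the Ikzf1 window, and 14 ChIP and 10 input reads in the Ikzf3 window, so the difference was present in the typical bin.

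Along the windows the difference was uneven. In segments of 50 kb, the ratio outside peaks ran from 0.907 to 1.11 over the Ikzf1 window and from 1.12 to 1.63 over the Ikzf3 window, so that each Ikzf3 segment lay above each Ikzf1 segment. The interval lay above 1 in 0 of 7 segments of the Ikzf1 window and in 6 of 7 of the Ikzf3 window, against 39.3% of the 2356 other segments of chromosome 11. The highest was the first segment of the Ikzf3 window, where 849 ChIP reads lay against 494 in the input, for a ratio of 1.63 (1.45 to 1.82), above 98.6% of chromosome 11 segments although it held 0 listed peaks. The last segment followed, at 1.47 (1.31 to 1.66), above 94.1%. Without the first segment the Ikzf3 window had a ratio of 1.25 (1.19 to 1.31), and the ratio of the Ikzf1 to the Ikzf3 window was 0.834 (0.780 to 0.891).

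Within the Ikzf1 window, the lowest segments were those from 0 to 50 kb, at 0.927 (0.808 to 1.06), and from 50 to 100 kb, at 0.907 (0.781 to 1.05). The first of these held 2 of the 4 peaks, including the one of score 13.2. The segment with the strongest peak, from 250 to 300 kb, had 1.11 (0.979 to 1.27). Neighbouring segments of this window did not differ beyond their intervals. Each window contained 6 bins without reads in either library, from 62 to 68 kb in the Ikzf1 window and from 230 to 236 kb in the Ikzf3 window, where nothing can be said of binding.

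**Figure D3:**
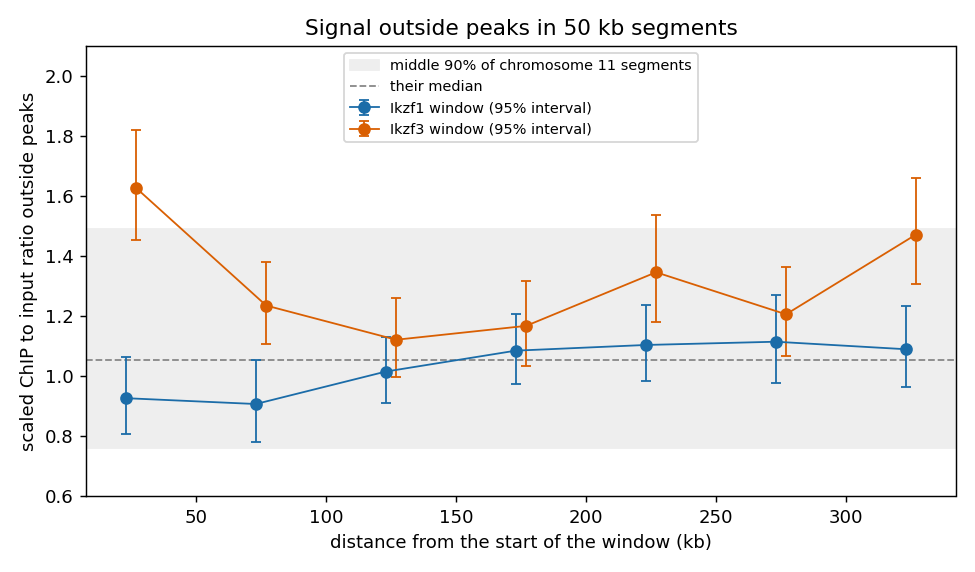
Scaled ChIP to input ratio in 1 kb bins outside peaks, summed over 50 kb segments, against distance from the start of the window in kb for the Ikzf1 (blue) and Ikzf3 (orange) windows, with 95% intervals for counting error. The grey band spans the middle 90% of the other chromosome 11 segments, 0.762 to 1.49, around their median of 1.05. The Ikzf1 points stay near the median, and the first Ikzf3 point, at 1.63, lies above the band.

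Each locus was set against the other windows of 350 kb on chromosome 11, cut without overlap from the start of the chromosome, leaving out those that overlap either locus and those with fewer than 700 input reads. The remaining 335 windows held a median of 1 peak, with quartiles of 0 and 3, and 54.0% held at least 1. At least 4 peaks were found in 23.0% of them. The Ikzf1 window, with 4 peaks, had more than 77.0% of windows (72.1 to 81.4%), and the Ikzf3 window, with 5, had more than 83.6% (79.2 to 87.4%). Both lay above most windows by peak number without being extreme, since 31 windows held at least 6 peaks. The highest count, 26, was in chr11:2800001-3150000, which held 20200 input reads in 149 covered bins, against a median of 3374 reads per window. None of its peaks scored at least 10. The next highest count was 17.

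By the strongest peak the order of the loci was the reverse. The score of 25.0 in the Ikzf1 window was above the strongest peak of 94.0% of windows (90.9 to 96.3%), and 20 windows had a higher one. The score of 14.0 in the Ikzf3 window was above that of 85.7% (81.5 to 89.2%), and 48 windows had a higher one. The 154 of 335 windows without a listed peak counted as lower in both shares. Among the 22 other windows with 4 peaks, 18 had a lower strongest score than the Ikzf1 window, around a median of 8.57. Among the 24 with 5 peaks, 13 had a lower one than the Ikzf3 window, around a median of 12.7. The Ikzf3 window was thus near the middle of the windows with 5 peaks. With the windows without a peak ranked lowest, the median window had a strongest score of 5.37, and the highest on the chromosome was 114.7. Having 2 peaks with a score of at least 10 placed either locus above 91.3% of windows (87.8 to 94.1%).

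By the ratio outside peaks the loci lay far apart. The Ikzf1 window was above 45.7% of chromosome 11 windows (40.2 to 51.2%) and the Ikzf3 window above 89.3% (85.4 to 92.4%), around a median of 1.07. The interval of this ratio lay above 1 in 53.1% of the 335 windows, and in the Ikzf3 but not the Ikzf1 window. The Ikzf1 lower limit was 0.996, so its place below 1 depends on the scaling by library size. Windows with more peaks had a higher ratio outside them, with a median of 0.934 at 0 peaks, 1.12 at 1 to 3, 1.25 at 4 to 5 and 1.27 at 6 or more. Among the 22 other windows with 4 peaks the ratio had a median of 1.22 and a range from 0.951 to 1.42, and 2 of them were below the Ikzf1 window. Among the 24 with 5 peaks the median was 1.27 and the range 0.980 to 1.48, and 15 were below the Ikzf3 window. The Ikzf1 window was thus low for its number of peaks, and the Ikzf3 window was near the middle of its class.

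Input depth moved with these positions. The Ikzf1 window held 3788 input reads, more than 94.9% of windows, and the Ikzf3 window held 3650, more than 87.8%. Among the 151 windows whose input lay within 10% of the Ikzf1 window, a comparison chosen after the data had been seen, 25.2% had a lower ratio outside peaks and 57.6% fewer peaks. Among the 207 within 10% of the Ikzf3 window, the shares were 85.0% and 75.8%. The part of input depth in the difference between the loci was not tested.

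**Figure D4:**
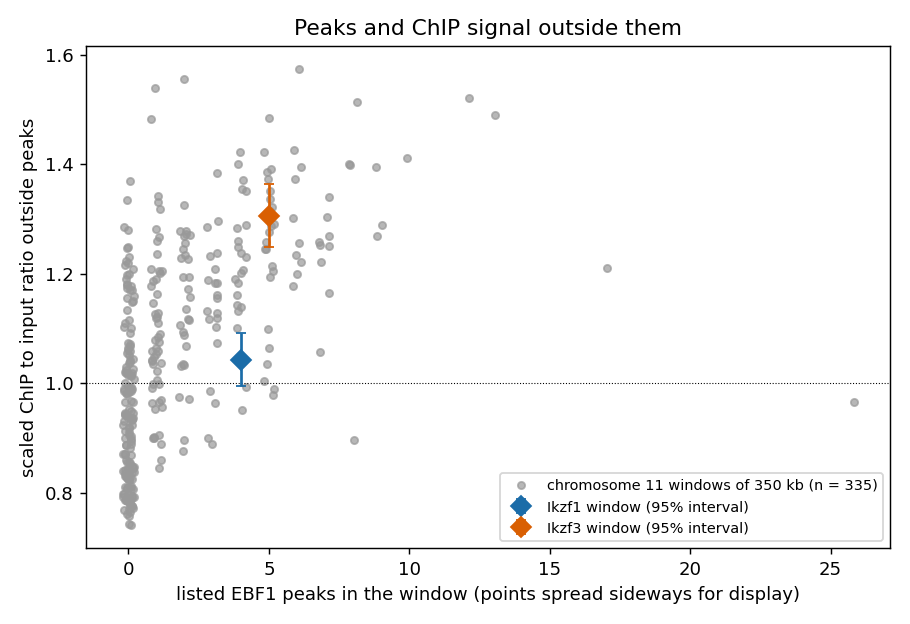
Scaled ChIP to input ratio outside peaks against the number of listed EBF1 peaks, for 335 windows of 350 kb on chromosome 11 (grey) and the Ikzf1 (blue) and Ikzf3 (orange) windows with 95% intervals for counting error. At 4 peaks the Ikzf1 window, at 1.04, lies below most windows of its class, and at 5 peaks the Ikzf3 window, at 1.31, lies within its class.

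Enrichment outside the listed peaks was sparse in both windows. A bin of 1 kb was counted when it held at least 20 ChIP reads with a scaled ratio of at least 5. The Ikzf1 window had 1 such bin, at chr11:11551001-11552000, with 29 ChIP and 4 input reads (ratio 6.86, 2.41 to 26.9). The Ikzf3 window had 1, at chr11:98402001-98403000, with 28 ChIP and 4 input reads (ratio 6.62, 2.32 to 26.0). On chromosome 11 the limits were met by 0.14% of 113602 bins, and by 0.0132% with the libraries exchanged, and by 0 bins in either window when exchanged. The bins were picked for their ratio, which raises it. Neither was kept when at least 30 ChIP reads were asked for, which their counts of 29 and 28 fixed, so this says nothing about stability. With reads not moved, the Ikzf1 window had 0 such bins.

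Unlisted stretches of peak length were also counted, at least 2 kb from any listed peak and at least 500 bp from one another. At the level of the weakest listed peak of the Ikzf1 window, 12 ChIP reads in 150 bp, the Ikzf1 window had 4 such stretches and the Ikzf3 window 7, against 1 in each with the libraries exchanged. At 9 reads, the level of the weakest peak of the Ikzf3 window, the counts were 24 and 41, against 15 and 9 exchanged. The interval of the ratio lay above 1 in 2 of the 4 and 4 of the 7 stretches at 12 reads. At 9 reads it did so in 10 of the 24 and 16 of the 41. No share for chromosome 11 stands beside these counts, so they do not set either locus apart. The fullest in the Ikzf1 window was chr11:11607811-11607960, with 15 ChIP and 3 input reads (ratio 4.73, 1.34 to 25.5). The fullest in the Ikzf3 window was chr11:98233731-98233880, with 15 ChIP and 11 input reads (ratio 1.29, 0.554 to 3.11), in a bin of high input. The counts of the weakest listed peaks were therefore also reached by stretches outside the list.

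The surroundings of the loci differed as well. Within 100 kb outside the Ikzf3 window there were 3 listed peaks before it and 4 after it, with scores from 5.04 to 7.06. Before the Ikzf1 window there were 3, with scores from 7.09 to 10.3, and after it 0. The next listed peak after the strongest Ikzf1 peak lay at chr11:16407811-16407960, so that a stretch of 4.70 Mb without a listed peak began there. Of the 663 gaps between neighbouring peaks on chromosome 11, 2 were longer, and the median gap was 45.0 kb. Of 7395 gaps on all chromosomes counted, 66 were longer.

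This stretch was not a hole in the data. It had input reads in 95.3% of its 1 kb bins, and in bins at least 2 kb from a peak 34154 ChIP reads lay against 38816 in the input, for a ratio of 0.833 (0.821 to 0.845). The stretch takes in the end of the Ikzf1 window, beyond its strongest peak. Chromosome 11 windows of 350 kb with 0 listed peaks, some of them within this stretch, had a median ratio of 0.934. By comparison, the 99.4 kb between the last listed peak before the Ikzf3 window and its close pair had a ratio of 1.57 (1.45 to 1.70), and the 56.7 kb after its last peak had 1.37 (1.23 to 1.52). Both of these stretches reach into the Ikzf3 window, and the 99.4 kb takes in its first segment, at 1.63, so they are not separate from the values above. The Ikzf1 window thus lay beside a long stretch of low ChIP signal without listed peaks, and the Ikzf3 window lay among further peaks and raised signal.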

How the data were processed

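Aligned reads of 35 bp were deposited, 1 per line, with position and strand and no other value, and repeated positions are absent (0 in either library). The build mm8 and the tool HOMER are named per the submitters' processing notes. The authors' peak list is labelled CCAT, so its peaks and scores are not ascribed to HOMER here. Aligner, filters and peak calling settings were not given in the sources used here. Peaks came with the authors' own score, of undefined scale, used to describe, rank and filter peaks within the list.

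Reads and bins were counted with numpy 2.4.6, pandas 2.3.3 and scipy 1.17.1 in Python 3.11.15, with figures from matplotlib 3.10.9. Ratios carry exact conditional binomial (Clopper-Pearson) 95% intervals, shares of windows exact Clopper-Pearson 95% intervals, and the comparison of loci an exact conditional odds ratio interval. The intervals of ratios and of the comparison of loci, and the floor of 3 counts (0.130 RPM of the input), cover counting error only. They leave out that reads amplified by PCR and lacking molecular identifiers may share a molecule. The intervals of shares do not carry the counting error of the locus. Neighbouring windows are not independent, which the intervals of shares leave out. The interval code was tested on simulated data. Every listed peak in either window was named, along with the enriched bins. The windows, members, and measures were chosen with earlier results of these data known. Read positions on unplaced contigs were left out.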

Additional observations from a re-analysis of the deposited data

How the results depend on the processing

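A count was taken as moved beyond 1.5 times its value, and other values outside their 95% interval. Of 63 values under an alternative setting, 38 did not move, 25 moved and 0 turned direction. Turning was scored for ratios alone, and only where the main interval excluded 1. Counts and shares could not turn by this rule, so the 0 says nothing of them. The ratio outside peaks and its quotient between the loci did not move under any setting run for them. Background scaling (a factor of 1.04 in place of 1.06) was not run for the ratio outside peaks. It would raise that ratio and its limits in proportion, which would carry the Ikzf1 lower limit of 0.996 above 1. Whether an interval lay above 1 thus depends on the scaling factor for the Ikzf1 window. In 1 kb around the centre the ratio in peaks was 4.26 (Ikzf1) and 3.61 (Ikzf3). With a score of at least 10, it was 73.8 (12.9 to 2953) for Ikzf1 and 46.4 (7.94 to 1869) for Ikzf3, which did not count as moved. These wide intervals overlap. At that score each window had 2 peaks, and each had more than 91.3% of windows. Widening the windows by 100 kb on each side gave 7 peaks for Ikzf1 and 12 for Ikzf3, and narrowing by 50 kb gave 2 for Ikzf1. Enriched bins in the Ikzf1 window numbered 0 with reads not moved, with at least 30 reads and in bins of 500 bp, and in the Ikzf3 window 0 with at least 30 reads. The limit of 30 lies just above the 29 and 28 ChIP reads of these bins, so that outcome was fixed by their counts. Against windows of chromosomes 1 to 19, 90.8% had fewer peaks and 65.3% a lower ratio outside peaks than the Ikzf1 window. For the Ikzf3 window 94.2% had fewer peaks, 90.2% a lower strongest peak and 93.7% a lower ratio. Against windows with input within 10% of the locus, 57.6% had fewer peaks, 87.4% a lower strongest peak and 25.2% a lower ratio than the Ikzf1 window, and for the Ikzf3 window the shares were 75.8%, 77.8% and 85.0%. Windows without a listed peak counted here too as having a lower strongest peak. For each moved value the cause was not tested. The settings with matched input, without the highest peak and without the first Ikzf3 segment were chosen after seeing the data. The limit of 700 input reads left the same 335 windows as no limit, so it says nothing about stability. With 5 input reads in the peaks of each window, depth limits any comparison of peak ratios. No paired analysis was possible because there was 1 library of each kind.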
